A study of Homo sapiens with 8 samples.

Results

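Genes of the actin cytoskeleton and of its transcription factor pair, serum response factor (SRF) and the myocardin-related transcription factors (MRTFs), were followed in multiple myeloma cells exposed to fluvastatin. The 10 genes were chosen by name from 58219 genes listed, by a rule that uses no measured value, although earlier results of these data were known when it was made. They are SRF, the coactivator genes MRTFA and MRTFB, the cytoplasmic actin genes ACTB and ACTG1, VCL (vinculin), FLNA (filamin A), the tropomyosin genes TPM1 and TPM4, and CNN2 (calponin 2). All 10 passed the filter on low counts and were among the 13129 protein-coding genes tested.

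SRF is a DNA-binding factor that recognises the CArG box, and it works with MRTFs at genes of the contractile and adhesive machinery or with the ternary complex factors (ELK1, ELK3 and ELK4) at immediate early genes. MRTFs bind monomeric actin and are held in the cytoplasm by it, so that polymerization of actin frees them to enter the nucleus. Fluvastatin is a statin, a class of drugs that lower cholesterol by blocking the mevalonate pathway, which also supplies lipid anchors for proteins. Myeloma cells are malignant plasma cells, and many of their lines grow in suspension or loosely attached.

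H929 and KMS11 are established human myeloma cell lines, and both carry the t(4;14) translocation. Each line was grown in RPMI medium with serum and received fluvastatin at 2 µM, or ethanol as the solvent, for 24 h, which gave 4 groups of 2 replicates (8 libraries of total RNA after ribosomal RNA removal). The study's methods describe the replicates as biological, and 2 lines cannot stand for all t(4;14) myeloma. The libraries held 26702506 to 41910438 rounded counts, and replicates of each group differed by more than counting noise. The 10 plasma cell markers summed to 2160 and 2017 TPM (the length-corrected transcript share) in ethanol and 1750 and 1697 TPM in fluvastatin in H929, and to 920 and 944 TPM against 666 and 752 TPM in KMS11, although CD38 was at 0.01 to 0.04 TPM in KMS11, against 21.2 to 26.9 TPM in H929. The 10 fibroblast and smooth muscle markers summed to 1.21 to 1.43 TPM in ethanol and 2.94 to 5.07 TPM in fluvastatin in H929, and to 0.93 to 1.71 TPM in KMS11, with COL1A2, COL3A1, DCN and LUM at 0 in every library. The 9 T cell and monocyte markers found summed to 1.57 to 1.65 TPM in ethanol and 3.47 to 4.37 TPM in fluvastatin in H929, and to 0.58 to 0.95 TPM in KMS11, with CD14 and CSF1R at 0. In H929, MYH11, DES, CD3E and CD3G of these last 2 lists rose beside the structural genes described here (2 of 4 and 2 of 3 tested). Over all tested genes 22.7% were called higher in H929, and so few listed genes tell little beside that share. Their part in the results was not tested. In bulk libraries such as these, fewer cells of a type and less RNA per cell cannot be told apart.

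The promoters of 5 genes are shown because they hold the CArG box in the window from 250 bases before to 50 bases after a RefSeq transcript start, and because their genes differ in response. Each line is 30 bases, 5′ to 3′ on the gene's strand, from RefSeq on GRCh38.p14, with the box in capitals.
SRF, chr6:43171239-43171268, plus strand: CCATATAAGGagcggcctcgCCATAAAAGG
ACTG1, chr17:81512874-81512903, minus strand: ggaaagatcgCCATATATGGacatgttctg
FLNA, chrX:154374709-154374738, minus strand: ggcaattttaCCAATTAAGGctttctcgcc
TPM4, chr19:16067355-16067384, plus strand: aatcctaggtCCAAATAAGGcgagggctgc
CNN2, chr19:1026509-1026538, plus strand: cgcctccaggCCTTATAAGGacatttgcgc

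The SRF promoter held 2 boxes, at 30 to 21 and at 10 to 1 bases before the start. The single boxes of ACTG1 and FLNA both lay 94 to 85 bases before the start, that of CNN2 89 to 80 and that of TPM4 173 to 164. The boxes of ACTG1 and TPM4 lie upstream of a RefSeq start but inside the longer gene span of the GENCODE annotation. Of the 9 genes with a window, 5 held a box (55.6%), beside 454 of 35116 windows overall (1.29%) and 438 of 27305 genes (1.6%), with both strands searched. The windows of MRTFA, MRTFB, VCL and TPM1 held none of these letters, and no window was given for ACTB. The genes were listed as SRF targets from general knowledge of this motif, so the share is a description of the choice.

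In ethanol, the actin genes led and the transcription factor genes were near the bottom of the group (all levels in this paragraph are TPM, which corrects for transcript length). ACTB and ACTG1 together reached 745 to 1028 TPM in the 8 libraries. FLNA stood at 54.5 to 103 TPM in the ethanol libraries, TPM4 at 63.4 to 79.4 TPM and CNN2 at 20.5 to 42.3 TPM. SRF stood at 3.05 to 4.49 TPM, MRTFB at 2.01 to 3.67 TPM and MRTFA at 1.45 to 3.08 TPM. VCL, at 2.90 to 3.68 TPM, and TPM1, at 2.62 to 4.84 TPM, were in the range of the transcription factors rather than of the other structural genes. Within the H929 ethanol libraries these low genes ran from VCL (3.67 and 3.68 TPM) through SRF (3.66 and 3.05 TPM), TPM1 (2.73 and 2.62 TPM) and MRTFB (2.32 and 2.01 TPM) to MRTFA (1.99 and 1.45 TPM), without overlap, although the nearest VCL and SRF libraries almost met. In KMS11, SRF (4.49 and 4.10 TPM) and TPM1 (4.84 and 3.91 TPM) overlapped above MRTFB (3.67 and 3.57 TPM), and VCL (3.07 and 2.90 TPM) overlapped with MRTFA (up to 3.08 TPM) at the bottom. TPM4 exceeded TPM1, both of them tropomyosins that coat actin filaments, by 13.9 to 72.9 times in every library. The 10 genes together made up 0.108% to 0.147% of all transcripts.

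**Figure D1:**
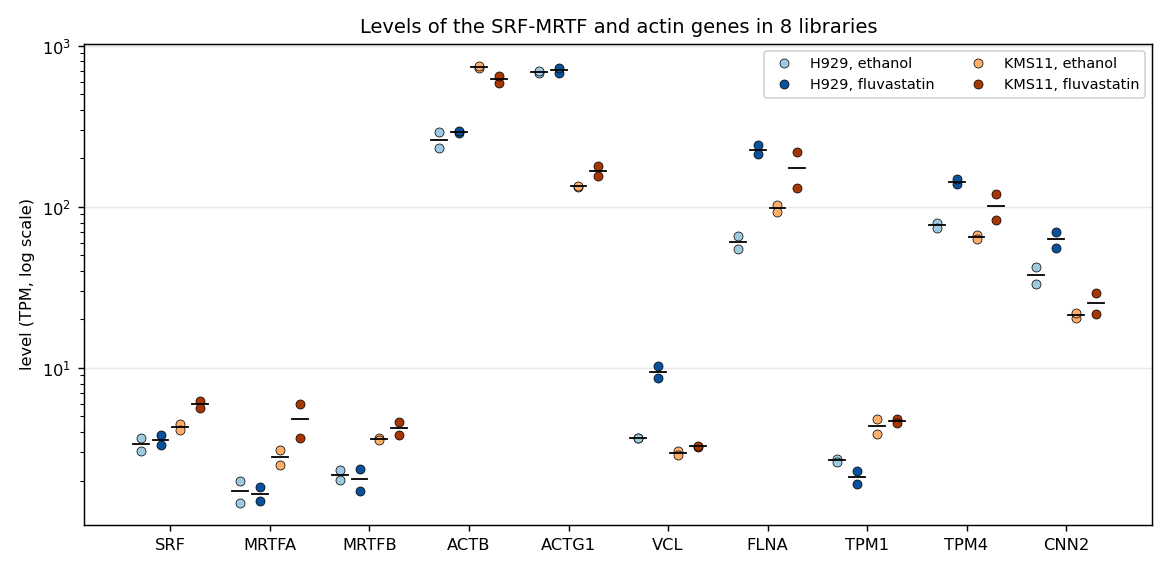
Level of each of the 10 genes (x axis) in TPM on a log scale (y axis); each point is 1 library, short lines are group means of 2 libraries, and colours give line and treatment. FLNA and TPM4 are higher in both fluvastatin libraries of each line, VCL only in those of H929 by a wide gap, and ACTB and ACTG1 exchange places between the lines.

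The lines used opposite cytoplasmic actins before any treatment. In the ethanol libraries of H929, ACTB stood at 290 and 233 TPM and ACTG1 at 682 and 698 TPM. In those of KMS11, ACTB stood at 733 and 751 TPM and ACTG1 at 133 and 135 TPM. ACTB thus made up 29.8% and 25.1% of the pair in H929 and 84.6% and 84.8% in KMS11, and no library of one line came near the other line. The sum of the pair depended on the scale. When the counts of both genes were summed, the pair was lower in KMS11 than in H929 in ethanol, by a log2 difference of -0.90 (adjusted p = 1.6e-05, edgeR). By the quasi-likelihood test of edgeR, adjusted over all genes after Benjamini and Hochberg, ACTG1 was lower in KMS11 than in H929 in ethanol by a log2 difference of -2.87 (standard error 0.10, adjusted p = 6.3e-09), which is a fold of 0.137, and ACTB was higher by 0.75 (standard error 0.11, adjusted p = 0.0002). The actins are nearly identical proteins, and their genes have many processed pseudogenes. The 11 ACTB pseudogenes held at most 0.0223% of the reads of the gene and its copies, and the 21 ACTG1 pseudogenes 0.0301% to 0.41%, with all ACTG1 values above 0.2% in KMS11.

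**Figure D2:**
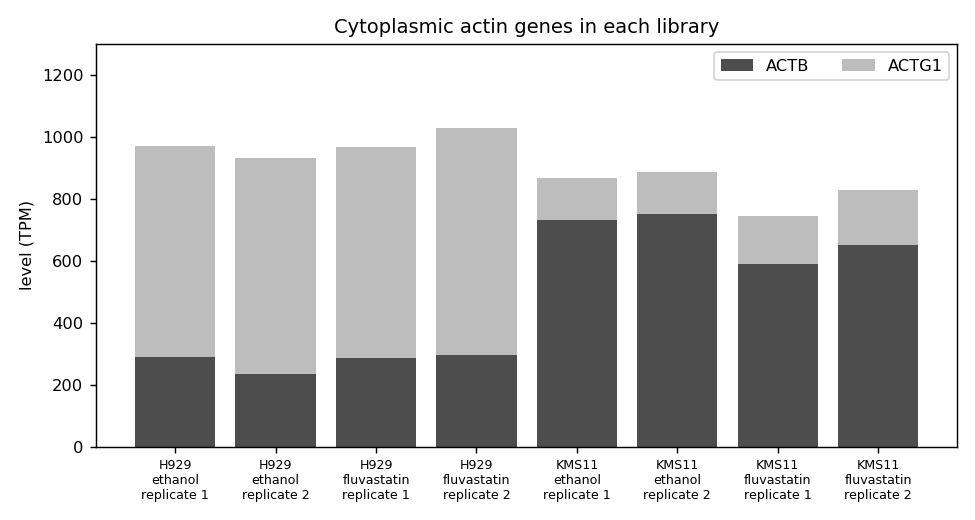
Stacked bars give the TPM of ACTB (dark) and ACTG1 (light) in each of the 8 libraries, from 0. ACTG1 is the larger part in all 4 H929 libraries and ACTB in all 4 KMS11 libraries, while the sum in TPM stays between 745 and 1028. On counts, the summed pair was lower in KMS11 than in H929 in ethanol.

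Among the other genes, 3 were also lower in KMS11 than in H929 in ethanol by the same edgeR test. CNN2, an actin-binding protein of the calponin family, was lower by a log2 difference of -1.39 (adjusted p = 5.1e-05), VCL, which links integrin adhesions to actin, by -0.81 (adjusted p = 0.00017), and TPM4 by -0.72 (adjusted p = 0.00045). In all, 5 of the 10 genes were called between the untreated lines, where 72% of all tested genes were, so a difference between the lines was the rule for any gene. SRF, MRTFA, MRTFB, FLNA and TPM1 did not pass the test, at log2 differences of -0.17 to 0.24. On log2(TPM + 1), with limma, TPM4 and VCL were at -0.23 each and no longer passed (adjusted p = 0.22 and 0.14), while MRTFB (0.55, adjusted p = 0.0077), FLNA (0.70, adjusted p = 0.014) and TPM1 (0.54, adjusted p = 0.0058) did pass, each higher in KMS11. All 10 genes had a higher TPM in KMS11 relative to their scaled counts (CPM) than in H929. SRF, for example, had ethanol means of 28.9 CPM and 3.355 TPM in H929, and 25.7 CPM and 4.295 TPM in KMS11. The part of this shared shift in the changed calls was not tested. With GC content trends removed from the counts, a further 3 genes passed, with higher values in KMS11, namely SRF (0.71), MRTFA (1.19) and FLNA (1.19).

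Across both lines, 4 of the 10 genes rose with fluvastatin and none fell in the edgeR fit with a term for the line. Over all tested genes 10.4% were called in either direction and 6.5% as higher, and the 10 genes had a median log2 change of 0.42, beside 0.03 for everything tested. The 4 were the structural genes FLNA, TPM4, CNN2 and VCL. TPM4 kept its call when any 1 library was left out, whereas FLNA lost it without either H929 ethanol library (1.41 and 1.28, adjusted p = 0.051 and 0.057), VCL without 5 of the 8 libraries, any H929 library or the second KMS11 ethanol library (adjusted p = 0.057 to 0.15), and CNN2 without 7 of the 8, all but the second treated KMS11 library (adjusted p = 0.059 to 0.14, edgeR). The genes of the transcription factor and its coactivators, both actins and TPM1 did not pass.

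FLNA (ENSG00000196924.14, chromosome X, 154348524 to 154374634, minus strand) encodes filamin A, which crosslinks actin filaments into networks and ties them to membrane proteins. Its level in H929 was 768 and 603 CPM (counts scaled by TMM to a common library total) in ethanol and 2855 and 2422 CPM in fluvastatin. In KMS11 it was 791 and 775 CPM in ethanol and 1990 and 1082 CPM in fluvastatin. Both treated libraries lay above both ethanol libraries in each line, but the treated KMS11 pair was far apart. The edgeR log2 change was 1.46 across both lines (standard error 0.25, adjusted p = 0.013), 1.94 in H929 (standard error 0.24, adjusted p = 0.0002) and 0.97 in KMS11 (standard error 0.23, adjusted p = 0.057), where it missed the threshold. As a share of the summed actin level in TPM, FLNA stood at 6.83% and 5.85% in ethanol and 24.9% and 20.7% in fluvastatin in H929, and at 11.9% and 10.6% against 29.4% and 15.8% in KMS11.

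TPM4 (ENSG00000167460.14, chromosome 19, 16067021 to 16103002, plus strand), the tropomyosin most abundant here of this pair, rose in both lines. H929 held 286 and 261 CPM in ethanol and 492 and 537 CPM in fluvastatin. KMS11 held 163 and 169 CPM in ethanol and 254 and 328 CPM in fluvastatin, so the treated and untreated libraries did not overlap in either line. By edgeR, the log2 change was 0.86 across both lines (standard error 0.10, adjusted p = 0.0027), 0.91 in H929 (adjusted p = 0.00034) and 0.81 in KMS11 (adjusted p = 0.0078), and TPM4 was the one gene of the 10 to pass in all 3 comparisons. The difference between the lines' responses was -0.10 (adjusted p = 0.72).

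TPM1 (ENSG00000140416.19, chromosome 15, 63042620 to 63071915, plus strand) did not move with it. Its counts were low, at 119 to 347 per library, and its level was 6.71 and 7.002 CPM in ethanol and 5.23 and 5.80 CPM in fluvastatin in H929, and 8.56 and 7.58 CPM against 9.42 and 9.06 CPM in KMS11. The log2 changes were -0.31 in H929 (adjusted p = 0.16) and 0.19 in KMS11 (adjusted p = 0.49) by edgeR, neither past the threshold.

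VCL (ENSG00000035403.17, chromosome 10, 73995193 to 74121363, plus strand) responded in one line. In H929 it stood at 38.7 and 43.5 CPM in ethanol and at 100 and 116 CPM in fluvastatin. In KMS11 it stood at 24.2 and 22.8 CPM in ethanol and at 30.9 and 27.0 CPM in fluvastatin. The treated H929 libraries were higher by far than all others, and the KMS11 groups did not overlap but lay close. The edgeR log2 change was 1.39 in H929 (standard error 0.12, adjusted p = 2.6e-05), a fold of 2.63, and 0.30 in KMS11 (standard error 0.12, adjusted p = 0.19). The difference itself, KMS11 minus H929, was -1.09 (standard error 0.17, adjusted p = 0.0022), past the threshold as in 23.2% of all genes, and it passed in each of 20 alternative settings. VCL overlaps AP3M1 on the opposite strand, and whether the counting used strand is not given in the sources used here.

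CNN2 (ENSG00000064666.14, chromosome 19, 1026586 to 1039068, plus strand) stood at 162 and 132 CPM in ethanol and 270 and 220 CPM in fluvastatin in H929. In KMS11 it stood at 56.9 and 55.6 CPM in ethanol and 87.1 and 60.7 CPM in fluvastatin. The groups did not overlap in CPM in either line, although the second treated KMS11 library was barely above the ethanol pair. In TPM the KMS11 groups did overlap, at 20.5 and 21.9 in ethanol and 29.0 and 21.6 in fluvastatin. By edgeR, CNN2 rose in H929 by 0.74 (log2, adjusted p = 0.0064, standard error 0.17), while the KMS11 value of 0.39 did not pass (standard error 0.17, adjusted p = 0.22).

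Taking H929 alone, FLNA, VCL, TPM4 and CNN2 were the 4 genes that rose, with none lower, where 42% of all genes were called and 22.7% as higher. All 4 stayed past the threshold in each of 20 alternative settings. The remaining 6 genes had log2 changes from -0.31 to 0.21, and the median over the 10 was 0.17, beside 0.02 over all genes.

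KMS11 alone gave a different group of 3, TPM4, SRF and ACTG1, where 3.12% of all genes were called and 2.58% as higher. SRF (ENSG00000112658.7, chromosome 6, 43171269 to 43181506, plus strand) stood at 25.9 and 25.6 CPM in ethanol and 43.6 and 35.5 CPM in fluvastatin in KMS11. In H929 it stood at 31.3 and 26.5 CPM in ethanol and 33.3 and 28.4 CPM in fluvastatin. The treated KMS11 libraries were above the untreated ones, and the H929 groups overlapped. The edgeR log2 change of SRF was 0.62 in KMS11 (standard error 0.14, adjusted p = 0.049), at the edge of the threshold, and 0.09 in H929 (adjusted p = 0.63), and their difference of 0.52 did not pass (adjusted p = 0.086).

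ACTG1 (ENSG00000184009.9, chromosome 17, 81509413 to 81523847, minus strand), the less abundant actin of KMS11, stood there at 338 and 372 CPM in ethanol and 470 and 495 CPM in fluvastatin. In H929, where it is the main actin, it stood at 2551 and 2658 CPM in ethanol and 2619 and 2749 CPM in fluvastatin. Only the KMS11 groups were apart. By edgeR, ACTG1 rose by a log2 change of 0.44 in KMS11 (standard error 0.09, adjusted p = 0.031), against 0.04 in H929 (adjusted p = 0.73), and the difference of the responses was 0.40 (standard error 0.13, adjusted p = 0.047), a call lost without any library except the first treated KMS11 library (0.34 to 0.47, adjusted p = 0.073 to 0.21). In TPM, ACTB made up 84.6% and 84.8% of the pair in KMS11 in ethanol and 79.2% and 78.5% in fluvastatin. This shift combines a higher ACTG1 TPM (133 and 135 against 155 and 179) with a lower ACTB TPM (733 and 751 against 590 and 651). In CPM, the scale of the tested rise, the ACTB groups overlapped.

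ACTB (ENSG00000075624.13, chromosome 7, 5526409 to 5563902, minus strand) was called in no fluvastatin comparison. Its level was 956 and 841 CPM in ethanol and 1046 and 1032 CPM in fluvastatin in H929, and 1486 and 1545 CPM against 1742 and 1403 CPM in KMS11. Its KMS11 value depended on the scale, since on TPM it went from 733 and 751 to 590 and 651, while the effective length that RSEM assigned to it varied from 1323 to 1706 bases between the KMS11 libraries. The log2 changes by edgeR were 0.21 in H929 (adjusted p = 0.17) and 0.05 in KMS11 (adjusted p = 0.82). The KMS11 value was -0.26 on log2(TPM + 1).

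The coactivator genes were not called in either line. MRTFA (ENSG00000196588.14, chromosome 22, 40410281 to 40636719, minus strand) stood at 11.7 and 10.9 CPM in ethanol and 25.6 and 14.6 CPM in fluvastatin in KMS11, a log2 change of 0.82 (adjusted p = 0.10 by edgeR, standard error 0.24). In H929 it stood at 10.7 and 8.36 CPM in ethanol and 11.3 and 9.63 CPM in fluvastatin. The KMS11 groups did not overlap, but 1 treated library carried most of the difference. MRTFB (ENSG00000186260.16, chromosome 16, 14071319 to 14266773, plus strand) stood at 28.9 and 26.2 CPM against 37.4 and 34.4 CPM in KMS11, a log2 change of 0.38 (adjusted p = 0.12, edgeR), and at 26.9 and 24.4 CPM against 24.9 and 27.4 CPM in H929.

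The libraries of a group differed along the base composition of the genes, the treated KMS11 pair the most. There the median log2 ratio of replicate 1 to replicate 2 was -0.19 over the genes of lowest GC content (up to 41.4%, 25% of genes) and 0.46 over those of highest (from 55.6%, 25% of genes). The same 2 values were -0.11 and 0.25 in ethanol and -0.14 and 0.25 in fluvastatin in H929, and 0.04 and -0.02 in the untreated KMS11 pair. SRF (60.8% GC), MRTFA (61.5%), FLNA (62.1%), ACTB (56.5%) and CNN2 (56.1%) are in the highest class, and each was higher in CPM in treated replicate 1 than in replicate 2. In fits without 1 of these libraries, the lone treated KMS11 library is assumed to vary like the other groups. Without treated replicate 1, the KMS11 log2 changes were 0.46 for SRF (adjusted p = 0.17), 0.36 for MRTFA (adjusted p = 0.48) and 0.46 for FLNA (adjusted p = 0.15), with TPM4 at 0.98 (adjusted p = 0.00042) and ACTG1 at 0.47 (adjusted p = 0.042) still past the edgeR threshold. Without treated replicate 2 they were 0.71 for SRF (adjusted p = 0.0072), 1.13 for MRTFA (adjusted p = 0.0019), 1.302 for FLNA (adjusted p = 0.00011), 0.59 for CNN2 (adjusted p = 0.019), 0.57 for TPM4 (adjusted p = 0.0074) and 0.36 for ACTG1 (adjusted p = 0.04).

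When GC content trends were removed, the 4 calls in KMS11 were TPM4 (0.83, adjusted p = 0.00043), FLNA (0.49, adjusted p = 0.0053), MRTFB (0.43, adjusted p = 0.022) and, just under the threshold, MRTFA (0.38, adjusted p = 0.050 after rounding), again by edgeR, with SRF at 0.25 (adjusted p = 0.10) and ACTG1 at 0.32 (adjusted p = 0.062). In H929, 7 genes passed on that scale, the 4 above and also SRF (0.29, adjusted p = 0.021), MRTFA (0.34, adjusted p = 0.039) and ACTB (0.37, adjusted p = 0.00067). The untreated KMS11 libraries also decided calls, since without replicate 1 or replicate 2 of them none of the 10 genes passed in edgeR (TPM4 at 0.76 and 0.81, adjusted p = 0.16 and 0.13), with 6 and 5 at an unadjusted p under 0.05, while 63 and 72 of all tested genes did.

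The relatives of these proteins were then counted in a list of 14 tropomyosin, calponin, transgelin, filamin and vinculin genes, which includes VCL, FLNA, TPM1, TPM4 and CNN2 (10 tested). In it 6 rose and none fell across both lines (60%, beside 6.5% higher and 3.93% lower over all tested genes), 6 rose in H929 (60%, beside 22.7%) and 2 in KMS11 (20%, beside 2.58%), with medians of 0.46, 0.63 and 0.33. Since 5 of these 10 are the genes already described, the counts are not separate from theirs. TAGLN2, a transgelin of non-muscle cells, rose by a log2 change of 0.49 (adjusted p = 0.012) and the tropomyosin gene TPM3 by 0.44 (adjusted p = 0.038) across both lines by edgeR. TPM3 rose by 0.67 in H929 and was not called in KMS11. The muscle actin genes ACTC1 and ACTG2 were listed at 0, ACTA2 was at 0.48 to 1.02 TPM, and 1 of the 3 actin genes tested was called in any fluvastatin comparison, ACTG1 in KMS11.

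Other genes known as targets of the MRTF-SRF pair were tested as a list of 26, of which 8 rose and none fell across both lines (30.8% higher, beside 6.5% over all genes). Within H929, 14 rose and 2 fell (53.8% and 7.69%, beside 22.7% and 19.3% over all genes, median 0.55), and within KMS11 3 rose and none fell (11.5% higher, beside 2.58%, median 0.13). The lists counted here share genes, so their counts are not separate. This one shares TAGLN2 with the list above, and ZYX and TES with the adhesion partners below. MYH9 and MYL6 are also in the myosin II list, ACTN1 among the crosslinkers and MICAL2 among the SRF partners. The 3 of KMS11 were ZYX, TAGLN2 and MYL6, each also in another list. ZYX, the zyxin gene of focal adhesions, stood at 10.4 and 7.76 CPM in ethanol and 17.0 and 15.7 CPM in fluvastatin in H929, and at 4.96 and 5.31 CPM against 14.9 and 8.95 CPM in KMS11. Its log2 change across both lines was 1.03 (adjusted p = 0.019), with TES at 0.85 (adjusted p = 0.025) and MYH9, the non-muscle myosin heavy chain, at 0.74 (adjusted p = 0.015) in the same edgeR fit. Neither TES nor MYH9 was called in KMS11. There the means of MYH9 in ethanol and fluvastatin were 534 and 791 CPM, but 112.5 and 110.8 TPM. MICAL2, an enzyme that oxidises actin, rose in H929 by 1.69 (adjusted p = 3.6e-05). In the opposite direction, ACTN1, which encodes the crosslinker alpha-actinin 1, fell by 1.06 on the log2 scale in H929 (adjusted p = 0.0008) and PFN1, which binds monomeric actin, fell by 0.30 (adjusted p = 0.048).

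Genes listed as immediate early genes, a class that SRF drives together with the ternary complex factors, were counted separately. Control of each listed gene by SRF was not tested. Of 12 immediate early genes tested, 1 rose across both lines, IER2 (0.59, adjusted p = 0.04, edgeR), a share of 8.33% that is near the 6.5% over all genes. In H929, 3 rose (NR4A1, MCL1 and IER2), a share of 25% near the 22.7% over all genes. There 1 fell (8.33%, beside 19.3% lower over all genes), ETV4, by 2.06 on the log2 scale (adjusted p = 0.00068, edgeR). Within KMS11, 1 of the 12 rose and none fell (8.33% higher, beside 2.58% over all genes). Between the untreated lines, 10 of the 12 were lower in KMS11 (83.3%, beside 36.4% lower over all genes), with a median of -2.93. Of the factors themselves, ELK3 rose in H929 by 0.48 (adjusted p = 0.0029) and ELK1 fell by 0.39 on the log2 scale there (adjusted p = 0.028) in the edgeR test, and neither ELK4 nor SCAI, a repressor of MRTF, was called in any fluvastatin comparison.

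A list of 14 SRF partners and regulators of MRTF transport had 1 gene higher and 2 lower across both lines (7.14% and 14.3%, beside 6.5% and 3.93% over all genes). The H929 comparison gave 4 higher and 5 lower (28.6% and 35.7%, beside 22.7% and 19.3%). That in KMS11 gave 1 higher and none lower (7.14% higher, beside 2.58%). Across both lines LMNA, which encodes the nuclear lamins A and C, rose by 1.35 (adjusted p = 0.0022), while the export receptor gene XPO1 fell by 0.46 on the log2 scale (adjusted p = 0.037) and the import receptor gene KPNB1 by 0.42 (adjusted p = 0.046) by edgeR. LMNA stood at 259 and 212 CPM in ethanol and 677 and 557 CPM in fluvastatin in H929, and at 18.5 and 18.7 CPM against 56.3 and 36.0 CPM in KMS11. Both treated libraries lay above both untreated ones in each line.

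Genes that build and turn over filaments formed a list of 48 tested. Of these, 10 rose and 2 fell across both lines (20.8% and 4.17%, beside 6.5% and 3.93% over all genes), 24 rose and 5 fell in H929 (50% and 10.4%, beside 22.7% and 19.3%), and 2 rose and 2 fell in KMS11 (4.17% each, beside 2.58% and 0.533%). The monomer-binding thymosin genes TMSB4X and TMSB10 rose by 0.92 (adjusted p = 0.032) and 0.88 (adjusted p = 0.033), and CAPG, a capping protein, by 2.40 (adjusted p = 0.024). ENAH, whose protein protects growing filament ends, fell by 0.86 on the log2 scale (adjusted p = 0.003) and WASF3, an activator of branched actin, by 0.70 (adjusted p = 0.031) by edgeR. WASF3 was at -1.04 in H929 and was not called in KMS11. ENAH went from 34.0 and 35.4 CPM to 16.6 and 16.8 CPM in H929 and from 76.8 and 74.6 CPM to 47.3 and 47.3 CPM in KMS11.

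Crosslinkers and membrane linkers, which include FLNA, had the largest share of genes called higher in H929 among the 9 lists drawn in the bar plot (71.4%). There 15 of 21 rose and 3 fell (median 0.64), beside 22.7% higher and 19.3% lower over all genes. In KMS11 6 rose (28.6%, beside 2.58%) and none fell (median 0.11), and across both lines 7 rose (33.3%, beside 6.5%) and 1 fell. EZR, the ezrin gene that joins the membrane to cortical actin, stood at 400 and 373 CPM in ethanol and 1447 and 1432 CPM in fluvastatin in H929, and at 192 and 202 CPM against 405 and 378 CPM in KMS11. Its edgeR log2 change was 1.44 across both lines (adjusted p = 0.0032), with SPTAN1, the spectrin of the membrane skeleton, at 1.20 (adjusted p = 0.0018) and ANXA2 at 1.19 (adjusted p = 0.0022). The plastin gene PLS1 fell by 0.64 on the log2 scale (adjusted p = 0.032).

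The partners of vinculin at adhesions were counted next. Of 17 tested, 9 rose and 2 fell in H929 (52.9% and 11.8%, beside 22.7% and 19.3% over all genes), with PXN, the paxillin gene, at 2.38 (adjusted p = 3.6e-06) and FERMT2 at 1.44 (adjusted p = 0.0013) by edgeR, and 1 rose in KMS11 (5.88%, beside 2.58%), ZYX at 1.21 (adjusted p = 0.03). Of 6 myosin II genes, 4 rose in H929 (66.7%, beside 22.7%) and 2 in KMS11 (33.3%, beside 2.58%). MYL12A, a regulatory light chain, rose from 196 and 198 CPM to 498 and 544 CPM in H929 and from 154 and 153 CPM to 232 and 277 CPM in KMS11. None of 8 YAP-TEAD genes, a second program tied to actin tension, was called across both lines or in KMS11. Over all genes 10.4% and 3.12% were called there, so none among 8 is no contrast. In H929 2 of the 8 rose and 2 fell (25% each, beside 22.7% and 19.3%).

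**Figure D3:**
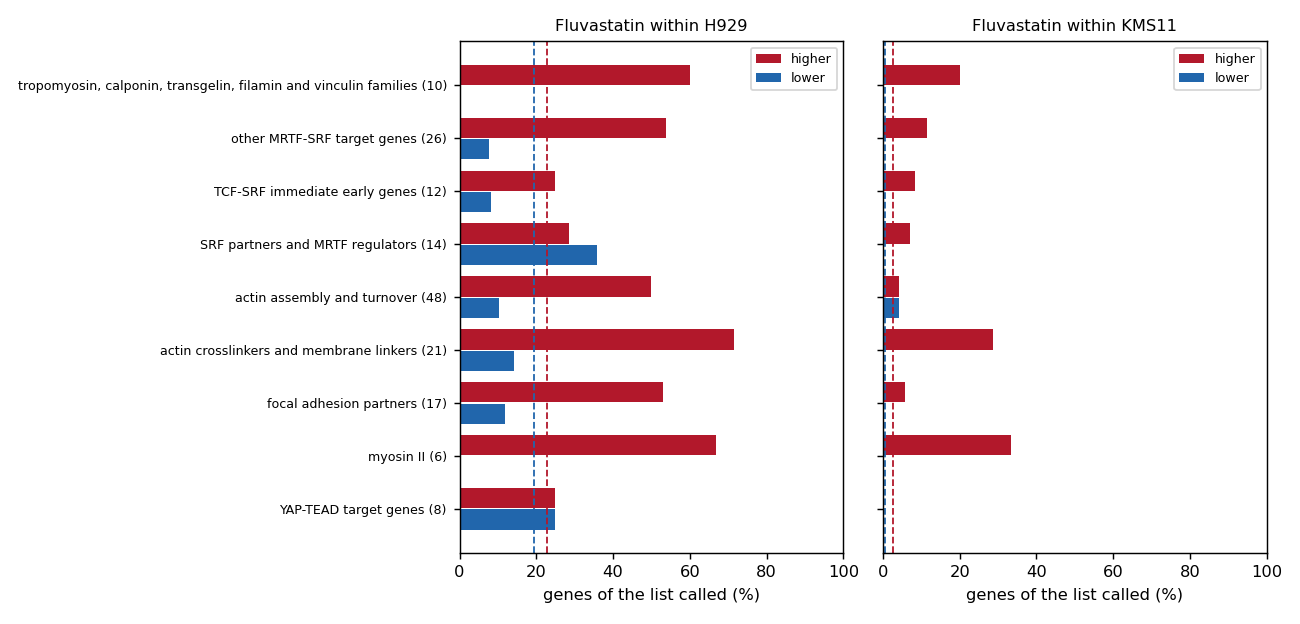
Horizontal bars give the percent of tested genes of each list (number tested in parentheses) called higher (red) or lower (blue) with fluvastatin in H929 (left) and KMS11 (right); dashed lines give the same shares over all 13129 tested genes. In H929 the bars for higher genes reach 71.4% for crosslinkers, 66.7% for myosin II (6 tested) and 60% for the tropomyosin, calponin, transgelin, filamin and vinculin families, beside 22.7% over all genes.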

How the data were processed

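The authors made stranded total RNA libraries (ribosomal RNA removed), sequenced paired 75 base reads, aligned them with STAR 2.5.2b to GRCh38 and quantified genes with RSEM 1.3.0. The deposited files give, for each gene and library, the expected count and the TPM that the authors obtained from RSEM, with an effective length. Expected counts were rounded and used for all tests, and TPM for levels between genes. Gene names and positions came from GENCODE 44, which matched 57392 of 58219 identifiers. Protein-coding genes with at least 10 counts at the median library size in enough libraries, and 15 in total, were kept (13129).

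Counts were scaled by TMM and tested with edgeR 4.0.16 (R 4.3.3) by its quasi-likelihood F test; p-values were adjusted over all tested genes (Benjamini-Hochberg), with a threshold of 0.05. The fit across both lines held terms for line and treatment. A fit with 4 group means gave the values within each line, their difference and the untreated lines' difference. These comparisons share libraries. Standard errors were derived from the F statistic. The code was tested on simulated data. Alternatives used DESeq2 1.42.0, limma 3.58.1 on log2(TPM + 1) or log2(TPM + 0.1), other scaling and filters, GC content and length trends removed (lowess), and each library left out. The genes and lists were chosen with earlier results of these data known, and named list genes are the 3 largest changes per list, direction and comparison among called genes whose mean log2 CPM was 1 or more, beside ELK1, ELK3, ELK4 and SCAI at any value. Some further genes and lists of the design are not reported here.

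Same-numbered replicates of ethanol and fluvastatin were checked for pairing. Their deviations from group means correlated at 0.30 in H929 and 0.03 in KMS11 over 13129 genes. The labels give no pairing and the correlation was near 0 in KMS11, so the numbers were not taken as pairs. The H929 value is no reason against pairing, and a replicate block is given below as an alternative.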

Additional observations from a re-analysis of the deposited data

Results flagged for a closer look

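The responses of 2 of the 10 genes stood out because H929 and KMS11 differed in the edgeR test of the difference in response itself (KMS11 minus H929, log2, Benjamini-Hochberg adjusted). These were VCL, at -1.09 (standard error 0.17, adjusted p = 0.0022), and ACTG1, at 0.40 (standard error 0.13, adjusted p = 0.047), which lost the threshold in 16 of 22 alternative settings. VCL responded more in H929 and ACTG1 more in KMS11. The same test called 23.2% of all tested genes in either direction.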

How the results depend on the processing

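In H929, FLNA, VCL, TPM4 and CNN2 passed in all 20 alternatives, as did the VCL difference between the lines, and the 5 calls between the untreated lines held with any single library left out. Precision is limited by 2 replicates per group and, for TPM1 and MRTFA, by low counts (119 to 709 per library). The cause of the changes below was not tested, apart from the lower threshold, the left-out libraries and the summed actins, which change the result by construction.

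Of the 10 genes, 4 were called across both lines, beside 2 with limma on log2(TPM + 1), 2 on log2(TPM + 0.1), 1 at an adjusted p under 0.01, 0 by edgeR without the line term (4 over all genes, and 2 of the 10 at an unadjusted p under 0.05) and 1 to 4 with 1 library left out. Within H929 the count was 4, beside 7 with GC content trends removed. Within KMS11 it was 3, beside 5 with no filter, 5 with DESeq2, 1 with all annotated genes, 1 at 0.01, 0 with either limma scale (5 at an unadjusted p under 0.05 on each) and 0 to 6 with 1 library left out. Of the differences between responses 2 were called, beside 1 with all annotated genes, with DESeq2 and at 0.01, 6 with GC trends removed, 5 with GC and length trends removed, and 1 to 4 with 1 library left out. Between the untreated lines 5 were called, beside 8 with either trend correction.

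Over all genes, 1370 calls across both lines became 2556 with DESeq2, 3097 with GC and 3021 with GC and length trends removed, 161 at 0.01 and 191 to 1697 with 1 library left out. In H929, 5511 became 3538 at 0.01. In KMS11, 409 became 1098 with no filter, 926 with DESeq2, 223 and 158 with limma (pseudocounts 1 and 0.1), 1554 and 1596 with the trends removed, 129 at 0.01 and 63 to 2148 with 1 library left out. For the difference, 3048 became 1969 with limma at 0.1, 1258 at 0.01 and 1309 to 4269 with 1 library left out.

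The replicate block, fitted although the numbers were not taken as pairs, gave 1 of the 10 genes (TPM4) and 158 of all genes across both lines, with FLNA at an adjusted p = 0.070, VCL at 0.12 and CNN2 at 0.086 by edgeR, 4 and 6426 in H929, 5 and 1637 in KMS11, and 4 and 4227 for the difference.

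Signs turned only for genes whose reported value had not passed, except for ACTB when the actins were summed. Across both lines ACTB was -0.048 with both limma scales, and TPM1 was 0.00020 with GC and length trends removed and -0.17 to 0.028 with 1 library left out. In H929, MRTFB was -0.021 with all annotated genes, -0.064 and -0.094 with limma, -0.030 and -0.16 with the trends removed and -0.046 to 0.099 with 1 library left out, ACTG1 was -0.0055 with all annotated genes, MRTFA was -0.028 and -0.039 with limma and -0.034 to 0.32 with 1 library left out, and SRF was -0.026 to 0.22 with 1 left out. In KMS11, ACTB was -0.26 with both limma scales, -0.16 and -0.14 with the trends removed and -0.12 to 0.16 with 1 library left out. For the difference, SRF was -0.043 with GC trends removed, TPM4 was -0.31 to 0.092 with 1 library left out, and the summed actins gave 0.047 in place of ACTB. Between the untreated lines, SRF was 0.28 and 0.35 with limma and 0.71 and 0.70 with the trends removed (past the threshold), MRTFB was -0.11 and -0.072 with the trends removed, and the summed actins gave -0.90 (ACTB alone 0.75).

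Calls of the named list genes also depended on the setting. Over their alternative values, 1506 kept sign and call status, 268 lost a call, 6 gained one and 27 turned sign. The genes that lost a call are not named here. Of the partner genes, across both lines ELK4 was -0.0081 with all annotated genes, -0.067 and -0.069 with limma, -0.11 with GC and length trends removed and -0.041 to 0.058 with 1 library left out, and SCAI was -0.15 to 0.016 with 1 left out. In H929, ELK4 was -0.041 and -0.20 with the trends removed. In KMS11, ELK1 was -0.031 with median-of-ratios scaling and with DESeq2, -0.013 with all annotated genes, -0.16 and -0.17 with limma, -0.23 and -0.22 with the trends removed and -0.081 to 0.038 with 1 library left out. There ELK3 was -0.11 and -0.12 with limma and -0.065 to 0.18 with 1 left out, ELK4 0.049 with GC trends removed and -0.18 to 0.050, and SCAI -0.084 and -0.099 with limma and -0.13 to 0.21 with 1 left out.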

Other observations

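The genes of the group also varied together across the 8 libraries once each line's mean was taken out (Pearson's r of log2 CPM, given as a description, since the libraries share treatment, depth and base composition differences). SRF and MRTFA had r = 0.95, FLNA and CNN2 0.97, and FLNA and VCL 0.93, while TPM1 was negative against FLNA (-0.47) and VCL (-0.58). The genes most like FLNA were CRIP1 (0.998) and MVP (0.9955), and those most like VCL were SYNE2 (0.997) and BLTP1 (0.997). TPM4 was most like TUFT1 (0.995) and EIF2AK3 (0.994), CNN2 like MICAL1 (0.9955) and MXD4 (0.9915), and ACTG1 like STBD1 (0.983). SRF was most like TMEM184B and FAM193A (0.9935 each).

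Among plasma cell markers, XBP1, a factor of secretory cell identity, fell in both lines, by 0.37 on the log2 scale across both (adjusted p = 0.015, edgeR). In H929, 5 of the 10 markers were lower and 2 higher (50% and 20%, beside 19.3% and 22.7% of all tested genes), among them SDC1 at -1.08, MZB1 at -1.02 and SLAMF7 at -0.98 (adjusted p = 0.00086, 0.0086 and 0.0003), and in the other direction PRDM1 at 0.32 and FCRL5 at 0.89 (adjusted p = 0.015 and 0.03) in the edgeR test.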
